A study of Mus musculus with 4 samples.

Results

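The AP-1 transcription factors were examined in sorted cells of Comma D beta, a mouse mammary epithelial cell line, with and without doxycycline (dox). The family was taken as 8 genes, the Fos-type Fos, Fosb, Fosl1 and Fosl2, the Jun-type Jun, Junb and Jund, and Atf3, out of 18194 genes with a named probe set on the array. Their symbols in the array annotation matched 12 probe sets, and each gene was read from its probe set of highest mean, called the main probe set. All 8 main probe sets passed the filter on low values that left 12264 genes for analysis, and 7 of the 8 were above the table's lowest value on every array.

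The groups were untreated Sca1+ cells, untreated Sca1- cells, and Sca1+ and Sca1- cells given dox at 100 ng/ml for 1 day, with 1 array each. Sca1 is a surface antigen by which the cells were stained and sorted, 200000 to a fraction, after trypsin had released them from a medium with 2% serum, 5 ug/ml insulin and 10 ng/ml EGF. The series title names Bcl11b; what dox switches on or off in this line: not given in the sources used here. A single established line was used, its fractions may come from 1 culture per treatment, and the gene encoding Sca1 had no named probe set, so the sort could not be checked on it. With 1 array a group there is no replicate spread, and no test was run. Differences are described by size, with 2-fold (1 log2 unit) as the mark, and shares over all genes analysed are given for comparison.

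AP-1 is not a single protein but a set of dimers of basic leucine-zipper proteins. Jun proteins pair with each other or with a Fos protein, Fos proteins need a Jun partner, and the dimers bind the DNA element TGANTCA. Fos, Jun and Atf3 are known as early-response genes that growth factors, stress and cell detachment induce within minutes to hours, and in epithelia AP-1 acts in proliferation, matrix remodelling and keratinocyte differentiation. The level of RNA does not show dimer composition or phosphorylation, through which much of AP-1 activity is set.

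The promoters of Atf3, Fos and Jun are shown because these early-response genes read higher on both dox arrays than on both untreated ones and their windows held a motif match, a choice made after their values were seen. Jund and Fosl2 had the same order of arrays by treatment but no match, and are not shown. RefSeq promoter windows (build GRCm38.p6) were at hand for 7 of the 8 members. Each sequence below is the 250 bases before the annotated start, 5′ to 3′ on the gene's strand: Atf3 at chr1:191183334-191183583, minus strand, Fos at chr12:85473640-85473889, plus strand, and Jun at chr4:95052223-95052472, minus strand. Capitals mark exact matches to TGACG, the core of cyclic-AMP response elements, or to TGACATCA, a relative of the AP-1 element.
Atf3: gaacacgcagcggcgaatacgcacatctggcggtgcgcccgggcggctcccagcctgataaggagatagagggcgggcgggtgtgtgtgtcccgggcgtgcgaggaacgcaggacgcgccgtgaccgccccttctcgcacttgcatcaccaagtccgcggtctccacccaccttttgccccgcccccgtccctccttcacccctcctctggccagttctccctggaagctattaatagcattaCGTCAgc
Fos: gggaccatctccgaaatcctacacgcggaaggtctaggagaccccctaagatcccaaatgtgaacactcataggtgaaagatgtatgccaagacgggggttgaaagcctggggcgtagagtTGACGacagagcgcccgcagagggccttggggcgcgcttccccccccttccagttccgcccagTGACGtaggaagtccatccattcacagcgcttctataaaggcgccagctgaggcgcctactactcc
Jun: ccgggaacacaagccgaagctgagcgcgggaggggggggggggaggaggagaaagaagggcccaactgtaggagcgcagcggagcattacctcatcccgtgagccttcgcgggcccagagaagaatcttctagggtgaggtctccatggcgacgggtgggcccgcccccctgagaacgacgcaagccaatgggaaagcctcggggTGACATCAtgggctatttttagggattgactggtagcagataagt

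None of the 7 member windows held TGANTCA, the palindrome TGACGTCA or a CArG box (the site of serum response factor, searched with 6 A or T bases between CC and GG) in those 250 bases, on either strand. TGANTCA was in 6.75%, TGACGTCA in 1.55% and the CArG box in 1.47% of all 32851 windows. TGACG, which is also contained in TGACGTCA, was in 4 of the 7 (Atf3, Fos, Fosb and Junb), against 17.8% of all windows and 30.3% of the 9892 analysed genes that had a window. In Fos it lay at bases -129 to -125 and -66 to -62, counted back from the start, and in Atf3 at -7 to -3 on the opposite strand. TGACATCA was found in Jun alone among the members, at -45 to -38, and in 2.93% of all windows. Fosl2 and Jund had no match to any of the 5 motifs. These matches are letters in a window and were not measured as binding.

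Across the family, dox was accompanied by unequal differences. Atf3 was about 3-fold higher with dox in both fractions, Fos and Jun were higher by less than 2-fold, and Junb and Fosl1 were lower by less than 2-fold. In both fractions 6 of the 8 members had a dox difference above 0 and 2 had one below 0, where 41.8% of all genes analysed were above and 36.5% below. The median over the 8 members of the mean dox difference was 0.41 (log2), against 0.05 over all genes. Fosl2, the smallest of the 6 at 0.02 in Sca1+ cells, was -0.18 there when arrays were centred on their all-probe-set median and -0.02 after quantile normalization.

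In Sca1+ cells 2 of 8 members, Fosb and Atf3, passed 2-fold upward with dox, as did 8.47% of genes, and 0 passed it downward, as did 12.9% of genes. In Sca1- cells Atf3 alone was 2-fold higher (7.2% of genes) and 0 members were lower (11.3% of genes). Atf3 was therefore the 1 member past 2-fold upward in both fractions, a call that 5.29% of genes had, and 0 members were past it downward in both, as 8.56% of genes were. At this size the family as a whole was not set apart from the background, and the description rests on single members.

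**Figure D1:**
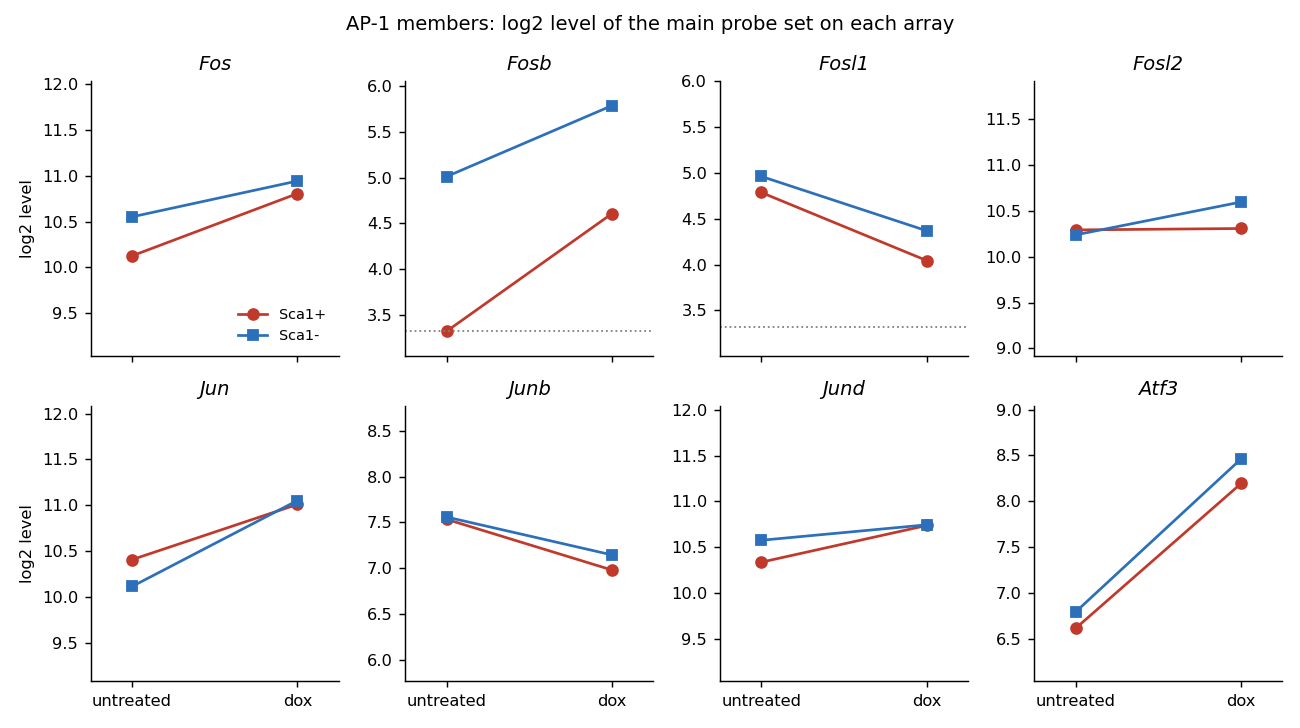
Log2 level (y axis, each panel spanning 3 log2 units) of the main probe set of each AP-1 member on the 4 arrays, untreated and with dox (x axis), for Sca1+ (red circles) and Sca1- cells (blue squares); each point is 1 array and the dotted line, in the panels that reach it, is the lowest value of the table, 3.32. Both Atf3 lines climb by more than 1.5 units, the Junb and Fosl1 lines slope down, and the Sca1+ line of Fosb lies below its Sca1- line.

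Among the Fos-type genes, Fos, the prototype of the class, read 10.13 (log2) in untreated Sca1+ cells, 10.55 in untreated Sca1- cells, 10.81 in Sca1+ cells with dox and 10.94 in Sca1- cells with dox. Both dox arrays were above both untreated arrays. In sorted populations such as these, a difference in RNA per cell and one in the share of cells that express a gene cannot be told apart. The difference was 1.60-fold in Sca1+ and 1.31-fold in Sca1- cells. Upward differences at least as large as the smaller of these, in both fractions, were seen for 18.7% of all genes, and for 14.0% of the 1115 genes with a mean level within 1 log2 unit of that of Fos.

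Fosb, an activating paralogue of Fos, was the dimmest member to pass 2-fold. Its 1 probe set was at the lowest value, 3.32, in untreated Sca1+ cells and read 5.01 in untreated Sca1- cells, 4.61 in Sca1+ cells with dox and 5.79 in Sca1- cells with dox. Within each fraction the dox array was the higher, but the untreated Sca1- array lay above the dox Sca1+ array. The dox difference was at least 2.44-fold in Sca1+ cells, a bound because the untreated value is at the floor (a linear level of 10), and 1.71-fold in Sca1- cells. On the linear scale the 3 measured values ran from 24.4 to 55.1. With the floor raised to a linear level of 32, the Sca1+ difference was 0.

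Fosl1, which encodes Fra-1 and lacks a transactivation domain of the Fos kind, went the other way. Its main probe set read 4.79 in untreated Sca1+ and 4.96 in untreated Sca1- cells, and 4.04 and 4.37 with dox. Both dox arrays were the lower, by 1.67-fold in Sca1+ and 1.51-fold in Sca1- cells. All 4 values were low, between 16.5 and 31.2 on the linear scale, so that a floor of 32 left no difference. On every array the other Fosl1 probe set, 1417488_at, had the floor value.

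Fosl2, which encodes Fra-2, was nearly level by its main probe set, 1437247_at: 10.29 and 10.24 in untreated Sca1+ and Sca1- cells, then 10.31 and 10.60 with dox. The dox differences were 1.01-fold and 1.28-fold. Its dimmer probe set, 1422931_at, gave 4.25, 4.48, 4.94 and 4.80 in the same order, a difference of 1.61-fold in Sca1+ and 1.24-fold in Sca1- cells. Neither probe set showed a 2-fold difference in either fraction.

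Of the Jun-type genes, Jun, the strongest activator of the class, read 10.41 and 10.11 in untreated Sca1+ and Sca1- cells and 11.01 and 11.05 with dox. Both dox arrays lay above both untreated arrays, by 1.52-fold in Sca1+ and 1.92-fold in Sca1- cells. The dimmer probe set, 1448694_at, gave the same order of arrays by treatment, with 9.19 and 9.03 untreated against 9.56 and 9.83 with dox, or 1.30-fold and 1.74-fold. For the main probe set, 11.2% of all genes had upward differences at least as large as its smaller difference in both fractions, as did 6.38% of the 1097 genes near its level.

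Junb, a Jun protein that activates simple AP-1 sites weakly and can oppose Jun, was lower with dox. It read 7.53 in untreated Sca1+ and 7.56 in untreated Sca1- cells, and 6.98 and 7.15 with dox. Both dox arrays were below both untreated arrays, by 1.47-fold and 1.33-fold. Downward differences as large in both fractions were seen for 19.2% of genes.

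Jund, a Jun gene known for steady expression in resting cells, read 10.34 and 10.58 in untreated Sca1+ and Sca1- cells and 10.74 and 10.75 with dox. Its differences of 1.32-fold and 1.12-fold were the smallest among the members after those of Fosl2 in mean size. On every array the other Jund probe set, 1440265_at, had the floor value.

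Since Jun and Junb differed in opposite directions, their ratio within an array differed more than either gene, and a shift of an array's log2 scale does not alter such a ratio. With dox the ratio of Jun to Junb signal exceeded that without dox by 2.23-fold in the Sca1+ and by 2.55-fold in the Sca1- fraction. These values use the main Jun probe set. By 1448694_at the dox differences of Jun were smaller, 1.30-fold and 1.74-fold, so its ratio to Junb differed less. For Fos against Fosl1 the ratio was 2.68-fold and 1.98-fold higher. Part of this rests on low values, since Fosl1 read at most 31.2 on the linear scale and had no difference with a floor of 32. These pairs were chosen after their values were seen, and the ratios show unequal differences, not which partner moved.

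Atf3, a stress-induced factor that pairs with Jun proteins and represses many promoters as a homodimer, had the largest dox difference of the family. It read 6.61 in untreated Sca1+ cells and 6.79 in untreated Sca1- cells, against 8.19 and 8.46 with dox. The arrays separated fully by treatment, by 2.99-fold in Sca1+ and 3.18-fold in Sca1- cells. Among all genes, 258 (2.10%) had upward differences at least as large as its smaller difference in both fractions, and among the 3984 genes near its level 63 (1.58%) did. Over 4 settings of the scaling, the deposited values included, its difference ran from 1.39 to 1.64 (log2) in Sca1+ and from 1.64 to 1.71 in Sca1- cells.

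Atf3 was the only member above the floor on all arrays whose levels spanned 1 log2 unit or more. The 3 genes with the most similar profile over the 4 arrays, out of 10260 compared by the root mean square difference of mean-centred log2 levels, were Klf2 (0.030), P3h1 (0.066) and Apbb3 (0.075). Klf2, a Krüppel-like factor that is itself an immediate-early gene, read 6.42 and 6.52 in untreated Sca1+ and Sca1- cells and 7.99 and 8.26 with dox. P3h1 encodes a collagen prolyl hydroxylase. With 4 points such likeness is weak as a description.

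**Figure D2:**
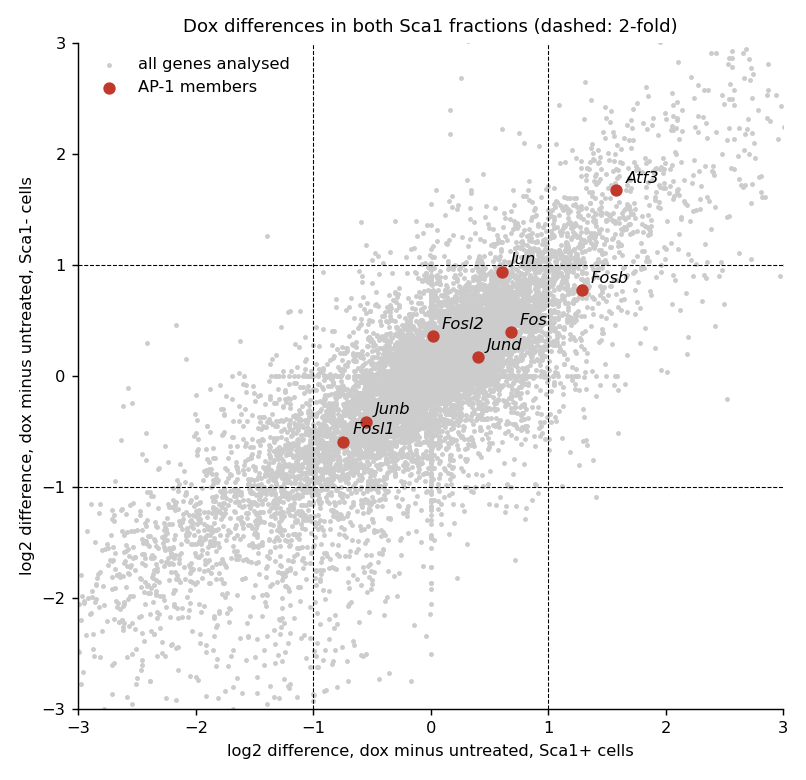
Log2 difference of dox minus untreated cells in the Sca1+ fraction (x axis) and in the Sca1- fraction (y axis), 1 grey point for each of 12264 genes and red points for the AP-1 members; 258 genes lie outside the axes. Atf3 stands alone of the members in the upper right corner beyond both 2-fold lines, at 1.58 and 1.67, Fosb passes the Sca1+ line only, and Junb and Fosl1 lie at the lower left of the origin.

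Between the fractions the members differed little, apart from Fosb. In untreated cells 0 of 8 members were at least 2-fold higher in Sca1+ cells (3.07% of genes) and 1, Fosb, was 2-fold lower (3.33% of genes). With dox the counts were again 0 higher (2.52% of genes) and 1 lower (2.98% of genes). Past 2-fold both times were 1.08% of genes upward, with 0 members, and 0.881% downward, with 1.

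Fosb was at least 3.22-fold lower in untreated Sca1+ than in untreated Sca1- cells and 2.26-fold lower with dox. Downward differences this large both times, by the smaller of them, were seen for 75 genes (0.612%), and for 27 (0.907%) of the 2978 genes near its level. The call rests on low values: with a floor at a linear level of 32 the differences were -0.01 and -0.79 (log2).

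For the other members the Sca1 difference stayed under 1.35-fold. Fos was 1.34-fold lower in Sca1+ than in Sca1- cells without dox and 1.10-fold lower with it. Jun was 1.23-fold higher without and 1.03-fold lower with dox. Of the 8 members, 6 had a Sca1 difference below 0 both times (34.6% of genes had one), but with arrays centred on their all-probe-set median only 3 did, since Atf3, Fosl1 and Junb then turned to 0.05, 0.05 and 0.20 in untreated cells.

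**Figure D3:**
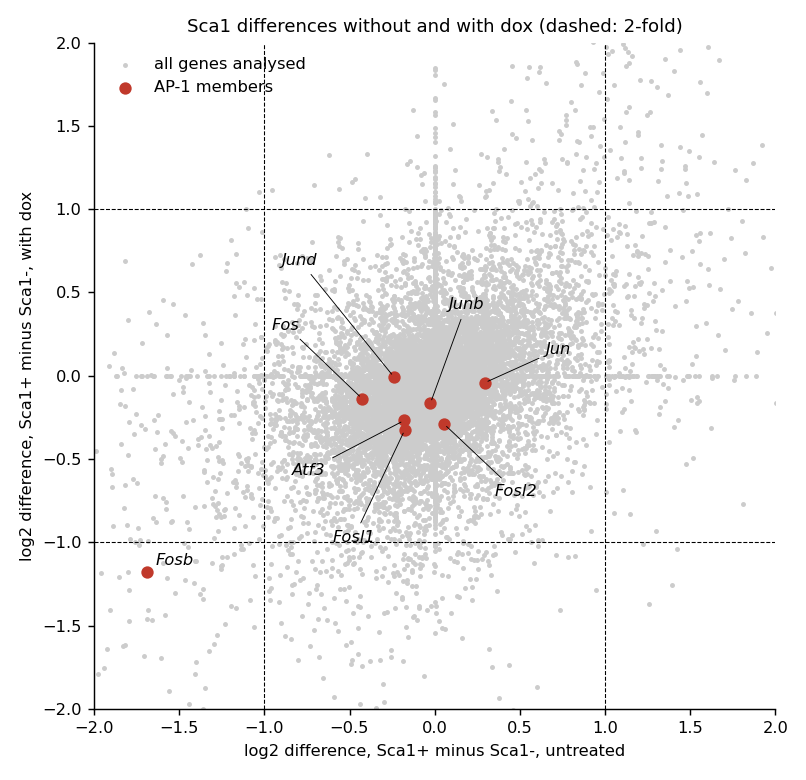
Log2 difference of Sca1+ minus Sca1- cells without dox (x axis) and with dox (y axis), 1 grey point for each of 12264 genes and red points for the AP-1 members; 207 genes lie outside the axes. Fosb, at -1.69 and -1.18, is past both 2-fold lines at the lower left, and the other 7 members lie near the origin.

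The dox difference in Sca1+ cells less that in Sca1- cells was at least 0.51 (log2) for Fosb, whose untreated Sca1+ value is at the floor, and its direction rests on that floor, since with the floor raised to 32 it was -0.77. For the other 7 main probe sets it lay between -0.34, for Jun and Fosl2, and 0.29, for Fos. Centred on the all-probe-set median, Fosb was at 0.28, Jun at -0.56 and Fosl2 at -0.57, and with probe sets averaged Fosl2 was at 0.01. Atf3 was at -0.09, and at -0.32 with that centring, so the order of the members depends on the scaling. The median absolute value over all genes was 0.27, and the difference was not tested.

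Several measured properties of the arrays differed alongside some of the members. The difference between 3′ and 5′ signal of the actin control, a sign of RNA integrity and labelling, was 0.69 on the untreated Sca1+, 0.81 on the untreated Sca1-, 0.83 on the dox Sca1+ and 0.91 on the dox Sca1- array (log2), which is the order in which Fos, Jund and Atf3 increase. That of the Gapdh control rose in the same order of arrays, at -0.10, -0.055, -0.013 and 0.11. Fosb, Fosl1, Fosl2, Jun and Junb did not follow this order. Heat-shock genes that respond to cell dissociation had a median mean dox difference of 0.32 over 9 genes, with 7 above 0 in both fractions and 0 past 2-fold upward or downward in both (5.29% and 8.56% of genes). All 8 epithelial markers were measured, with a median mean dox difference of -0.63 (log2) against 0.05 over all genes. In both fractions 5 of the 8 were below 0 and 2 above it. The 2 above were Cdh1 (0.34 in Sca1+ and 0.15 in Sca1- cells) and the keratin gene Krt14 (0.10 and 0.38). Of the 8, 3 were 2-fold lower with dox in both fractions (8.56% of genes) and 0 higher (5.29%). The basal keratin gene Krt5 was lower by 15.9-fold in Sca1+ and 8.76-fold in Sca1- cells. The claudin gene Cldn7 was lower by 6.95-fold and 4.91-fold, and the luminal keratin gene Krt8 by 3.32-fold and 3.89-fold. The summed linear level of the 8 was 13217 and 15038 in untreated and 9447 and 11085 in dox Sca1+ and Sca1- cells. Between the fractions, Cldn7 (3.73-fold untreated, 5.28-fold with dox) and Krt8 (3.23-fold and 2.75-fold) were lower in Sca1+ cells, and Trp63, a basal-cell factor, was higher (2.57-fold and 2.11-fold). The basal markers did not all go with Trp63. Krt5 was at 0.70 untreated and -0.17 with dox (log2, Sca1+ minus Sca1-), and Krt14 at 0.23 and -0.05. Of the 8 markers, 5 were below 0 both times and 1 was above.

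Markers of other cell types ranged from the floor to high levels. Of 6 named T-cell markers 5 were at the floor throughout. Of 7 fibroblast markers 3 (Col1a1, Col3a1 and Pdgfrb) were at the floor on all arrays. The summed linear level of the list was 78.9 and 95.4 in untreated and 750 and 424 in dox Sca1+ and Sca1- cells, mostly Dcn. The main Dcn probe set was at the floor in both untreated fractions and had a mean dox difference of 5.59 (log2). The other of its 2 probe sets had 0.29. Leukocyte markers summed to 269 and 1344 untreated and to 183 and 254 with dox, with Ptprc and Itgam at the floor, and single genes of the list went opposite ways. Cd14, a receptor for bacterial lipopolysaccharide, was 4.95-fold and 10.5-fold lower with dox, and in Sca1+ cells 6.28-fold lower untreated and 2.96-fold lower with dox. Cd68, a lysosomal glycoprotein of macrophages, was 6.91-fold and 5.27-fold higher with dox. The 5 endothelial markers summed to between 50.0 and 53.6, where 5 floor values give 50. The part of any of these in the members' differences was not tested.

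Other bZIP proteins that share partners or sites with AP-1 were more often below 0 than above it, with 9 of 17 below and 4 above in both fractions. Of the 17, 1 was at least 2-fold higher in both fractions and 4 were lower, against 5.29% and 8.56% of all genes, and the list median was -0.13 (log2). Jdp2, a Jun dimerization protein that represses AP-1 sites, read 8.40 in both untreated fractions and 4.72 and 5.85 with dox, 12.8-fold and 5.84-fold lower in Sca1+ and Sca1- cells. Cebpb, a C/EBP factor of the acute-phase response and of mammary differentiation, was 15.3-fold lower in Sca1+ and 3.30-fold lower in Sca1- cells. Nfe2l2, the oxidative-stress factor NRF2, was 4.38-fold and 3.03-fold lower, and Maf 3.98-fold and 2.52-fold lower. The other Nfe2l2 probe set had a mean dox difference of -0.45 (log2), under 2-fold. Crem, a cyclic-AMP responsive modulator, was 6.76-fold and 3.90-fold higher. The second Jdp2 probe set and at least 1 dimmer one each of Maf (6 probe sets) and Crem (4) showed mean dox differences of 0.00. The folds given are those of the brightest probe set, and the remaining ones of Maf and Crem are not described.

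Upstream kinases and the serum response factor group differed less. Of 14 measured, 1 was 2-fold higher in both fractions (5.29% of genes) and 0 were lower (8.56%), with a median of 0.32 (log2) and 10 above 0 in both. Rps6ka5, the nuclear kinase MSK1 that phosphorylates histone H3 and CREB at early-response genes, went from 4.97 in both untreated fractions to 7.04 (Sca1+) and 7.31 (Sca1-) with dox, which is 4.18-fold and 5.06-fold. Its least changed probe set had a mean dox difference of 0.00. Of 8 genes that regulate AP-1 proteins, such as the ubiquitin ligase genes Fbxw7 and Itch, 0 were 2-fold higher or lower in both fractions, where 5.29% and 8.56% of genes were, and the median was 0.08.

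The other immediate-early genes were split. Of 26, 7 passed 2-fold upward in both fractions (5.29% of genes) and 2 downward (8.56%), with a median of 0.32, and 14 were above and 12 below 0 in both. Egr2, a zinc-finger early-response factor, was 9.26-fold and 6.08-fold higher in Sca1+ and Sca1- cells. Dusp1, a phosphatase that inactivates MAP kinases, was 3.02-fold and 3.62-fold higher, from 7.79 and 7.63 to 9.39 and 9.48. Ptgs2, the inducible cyclooxygenase, was 3.08-fold and 3.76-fold higher. Plk2, Arc, Klf2 and Klf6 completed the higher set, though the other Plk2 probe set had a mean dox difference of 0.00. Socs3, a feedback inhibitor of cytokine signalling, was 5.92-fold and 3.09-fold lower, and Ier2 4.07-fold and 2.59-fold lower. Egr3 was the 1 gene of this list 2-fold lower in Sca1+ than in Sca1- cells both times, by 2.57-fold untreated and 2.43-fold with dox.

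**Figure D4:**
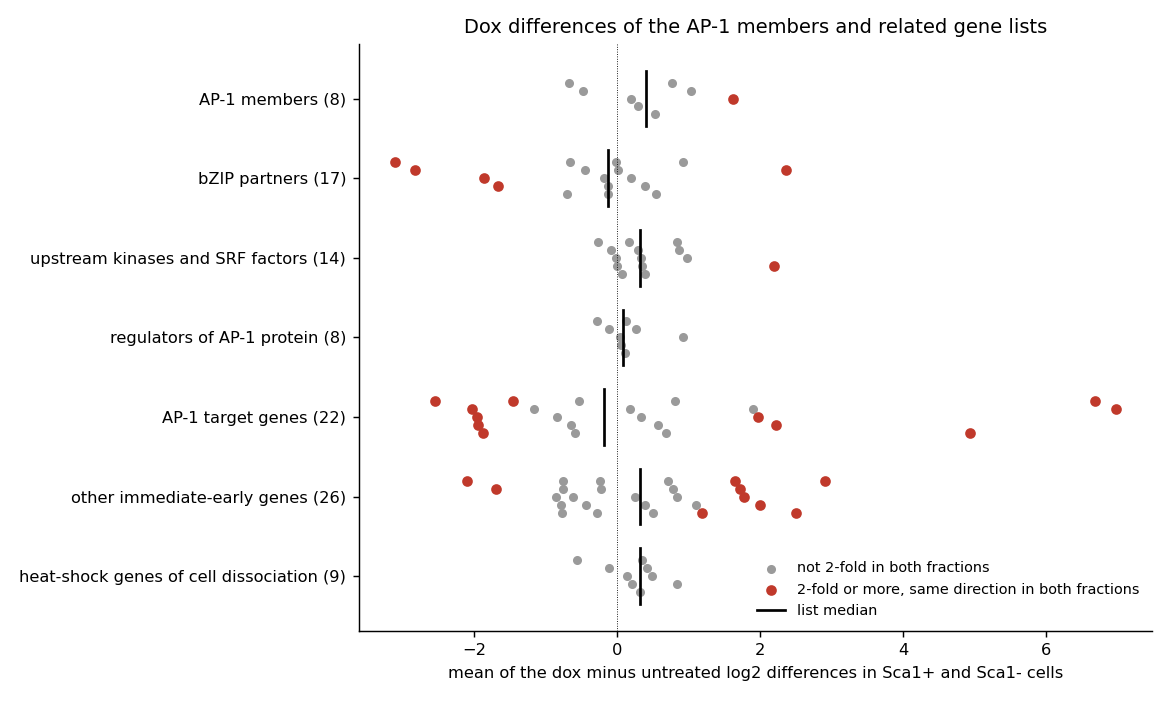
Mean of the dox minus untreated log2 differences in Sca1+ and Sca1- cells (x axis) for each gene of 7 lists (y axis, number of genes analysed in parentheses); red points were 2-fold or more different in the same direction in both fractions, grey points were not, black bars are list medians, and vertical scatter within a list carries no meaning. Atf3 is the red point among the AP-1 members, and the list of target genes has the widest spread.

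Genes known as AP-1 targets differed widely in both directions. Of 22 measured, 5 passed 2-fold upward in both fractions (5.29% of genes) and 6 downward (8.56%), and the median was -0.18. Mmp13, an interstitial collagenase, read 3.32 (the floor) and 3.96 in untreated Sca1+ and Sca1- cells and 10.58 and 10.68 with dox, at least 153-fold and 105-fold higher. Sprr1a, a cornified-envelope precursor, read 4.91 and 4.72 against 11.60 and 11.40. The dox difference of its relative Sprr1b was 52.6-fold in the Sca1+ fraction and at least 17.8-fold in the Sca1- fraction. Plaur, the urokinase receptor, was 5.35-fold and 2.87-fold higher. By the brightest of 4 probe sets, the chromatin protein gene Hmga2 was 5.98-fold and at least 3.63-fold higher. Its untreated Sca1+ value, 3.34, was just above the floor, and another Hmga2 probe set had a mean dox difference of 0.00. Hmga2 passed the filter on low values only through its dox arrays.

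The lower targets were Mt2, Mt1, Cdh3, Ccnd1, Vegfa and Plau. Mt2, a metallothionein, was 8.35-fold and 4.10-fold lower in Sca1+ and Sca1- cells, and Mt1 5.51-fold and 2.78-fold lower by the brighter of its probe sets, the other having a mean dox difference of 0.00. Ccnd1, the G1 cyclin D1, read 10.95 and 11.42 untreated and 8.75 and 9.88 with dox, 4.58-fold and 2.92-fold lower. Plau, the protease that Plaur binds, was 3.55-fold and 2.12-fold lower, so that ligand and receptor differed in opposite directions. Il6, an inflammatory cytokine gene, went from 3.34 to 6.63 in Sca1+ and from 6.02 to 6.54 in Sca1- cells, 9.76-fold and 1.43-fold. Its untreated Sca1+ value was just above the floor, 3.32, so the 9.76-fold depends on a reading near that limit on 1 array.

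Promoter stretches of the 4 higher targets with a TGANTCA match and of Mt2, the 1 lower target found with a match, are shown to place the element in genes of opposite direction. Of the other lower targets, Mt1 and Vegfa held no match, and 3 (Ccnd1, Cdh3 and Plau) had no promoter window to search. Among the higher targets 0 lacked a window. Capitals mark the match, with up to 27 bases on each side (GRCm38.p6): Mmp13 chr9:7272452-7272512, plus strand, Sprr1a chr3:92485964-92486054, minus strand, Sprr1b chr3:92438857-92438917, minus strand, Plaur chr7:24462387-24462447, plus strand, and Mt2 chr8:94172512-94172572, plus strand.
Mmp13: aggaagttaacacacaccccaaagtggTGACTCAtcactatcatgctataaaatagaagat
Sprr1a: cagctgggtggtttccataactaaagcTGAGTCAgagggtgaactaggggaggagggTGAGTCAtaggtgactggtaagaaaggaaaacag
Sprr1b: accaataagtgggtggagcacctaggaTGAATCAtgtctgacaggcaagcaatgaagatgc
Plaur: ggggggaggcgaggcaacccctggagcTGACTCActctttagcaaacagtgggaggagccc
Mt2: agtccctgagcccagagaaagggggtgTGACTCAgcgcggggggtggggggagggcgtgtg

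Mmp13, Plaur and Mt2 carry the form TGACTCA, at bases -35 to -29, -69 to -63 and -79 to -73 from the start. Sprr1a carries TGAGTCA, the same element on the other strand, at -146 to -140 and again at -116 to -110, and Sprr1b carries TGAATCA at -111 to -105. Of the 14 analysed targets with a promoter window, 8 held TGANTCA within 250 bases of the start and 6 did not. Mmp3 and Ivl also held it, but both were at the floor on every array and were not analysed. Among the 8, Mmp10 was at the floor in both untreated fractions. It passed the filter on low values only through its dox arrays, at 3.88 and 4.13. Among the 6, Hmga2 did so as well, at 3.34 and 3.32 untreated against 5.92 and 5.18 with dox. The filter therefore bears on both sides of this split. Dox differences were above 0 in both fractions for 7 of the 8 with a match, Mt2 being the exception, and below 0 in both for 5 of the 6 without, Hmga2 being the exception. The median mean dox difference was 1.94 over the former and -0.90 over the latter. A further 8 analysed targets had no window and could not be placed in this split. Of these, 5 were below 0 and 1 above 0 in both fractions. The list holds genes picked for known AP-1 control, Mmp13 and Sprr1a were known from earlier results on these arrays to be higher with dox, and the split by match was made after the values were seen.

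Over all genes analysed that had a window, TGANTCA was present for 53 of 517 genes (10.3%) that passed 2-fold upward in both fractions, for 61 of 822 (7.42%) lower in both, and for 452 of 8553 (5.28%) of the rest. The corresponding shares for TGACG were 27.1%, 20.8% and 31.4%. Most genes of either direction therefore lacked the AP-1 element in this window, and the shares are given as descriptions with no test.

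**Figure D5:**
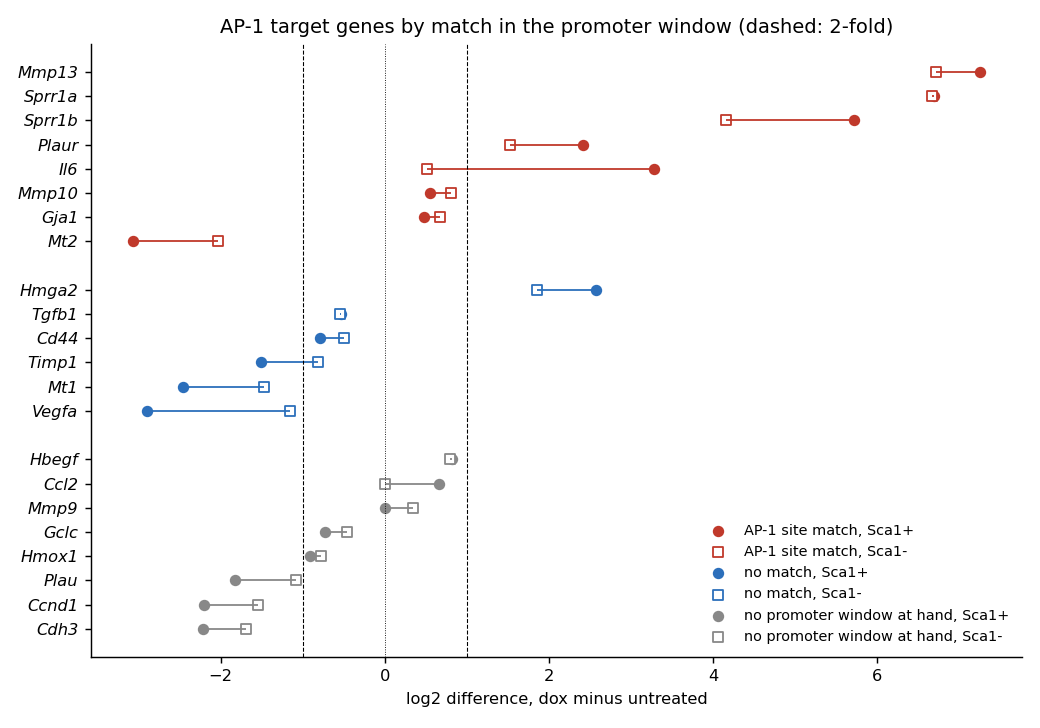
Log2 difference of dox minus untreated cells (x axis) for each analysed AP-1 target gene (y axis), in Sca1+ (filled circles) and Sca1- cells (open squares), with genes grouped by whether the 250 bases before the start held the AP-1 element (red), did not (blue), or no promoter window was at hand (grey). Of the 8 red genes 7 lie to the right of 0 in both fractions, and of the 6 blue genes 5 lie to the left.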

How the data were processed

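Total RNA (50 to 500 ng) from each of the 4 sorted fractions was turned into biotinylated cRNA with the Affymetrix 3′ IVT chemistry, per the labels' protocols. The deposited table gives log2 levels for 45101 probe sets; how the authors summarized and scaled them: not given in the sources used here. Every array has the same lowest value, 3.32, which is log2 of 10, and 44.8% to 48.0% of probe sets lie there, so a difference against it is a bound, and with 1 array a group this floor limits precision. Array medians ran from 3.48 to 3.70.

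Platform annotation named 34958 probe sets with 1 symbol and 932 with several, which were not used; symbols were updated by gene ID to GRCm38.p6. Genes were kept if any array reached the pooled median, 3.63. Differences of log2 levels were computed in Python 3.11.15 with pandas 2.3.3, and the counting step was checked on simulated data. Named genes were all 8 members, listed genes at least 2-fold different in the same direction in both comparisons of a pair (up to 6 a list and direction), and the 3 most alike genes of any member spanning 1 log2 unit; Klf6, Il6 and individual markers were named in addition after their values were seen. The members, lists and rules were chosen with earlier results of these data known. The motifs TGACG and TGACATCA were added after the promoters had been read. Alternatives covered scaling, probe sets, floor, filters and the size of fold. No sequence of a protein was used.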

Additional observations from a re-analysis of the deposited data

Results flagged for a closer look

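The Sca1+ minus Sca1- differences of Jun and Fosl2 pointed in opposite directions without and with dox on every probe set, each sign resting on 1 array per group, and this change of direction was not tested. For Jun they were 0.29 without and -0.042 with dox (log2) by 1417409_at, and 0.15 and -0.27 by 1448694_at. For Fosl2 they were 0.054 and -0.29 by 1437247_at, but -0.23 and 0.14 by 1422931_at, so the probe sets of Fosl2 disagree on the direction. The change of direction was lost for Jun with arrays centred on probe sets of mean 100 or more, at 0.27 and 0.0029, and for Fosl2 with its probe sets averaged, at -0.088 and -0.075.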

How the results depend on the processing

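Of 200 member differences recomputed under 5 settings of scaling, probe sets and floor, 197 kept their side of 2-fold and 10 changed sign, none of them past 2-fold. The other 3 were those of Fosb with the floor raised to 32, at 0, -0.01 and -0.79 (log2). With that floor, with genes above the floor on all arrays only, or with a highest array of 100 or more, the count of members 2-fold lower in Sca1+ cells was 0 in untreated cells, 0 with dox and 0 both times. That of members higher with dox in Sca1+ cells was 1. Over all genes, in the same order of settings, 212, 260 and 177 were lower in untreated Sca1+ cells, against 408 in the main setting. With dox 176, 281 and 236 were lower, against 366, and both times 59, 75 and 84, against 108. Higher with dox in Sca1+ cells were 670, 754 and 579 genes, against 1039. At 1.5-fold, 4 members were higher and 1 lower with dox in Sca1+ cells. In Sca1- cells and in both, 3 were higher and 1 lower. Of the 12264 genes analysed, 2350 were higher and 2549 lower at 1.5-fold with dox in Sca1+ cells. The counts were 2059 and 2378 in Sca1- cells, and 1448 and 1835 in both. At 3-fold, 0 members were higher with dox in Sca1+ cells or in both, against 409 and 254 genes. Atf3 missed it at 2.99-fold. Lower in Sca1+ than in Sca1- cells by 3-fold were 0 members with dox or in both treatments, against 85 and 36 genes. Centring arrays on their all-probe-set median shifted the all-gene median by -0.19 for dox in Sca1+ cells and by 0.22 for Sca1 in untreated cells. Over the 10 alternatives the median mean dox difference of the members ran from 0.28 to 0.44. Genes 2-fold higher with dox in both fractions numbered 649, and 417 with a highest array of 100 or more, 1448 at 1.5-fold and 254 at 3-fold. The lower genes numbered 1050, and 755, 1835 and 432 under these settings in the same order. Target genes 2-fold higher in both numbered 2 in place of 5 over genes above the floor on all arrays, where the list median was -0.74. All genes 2-fold higher in both numbered 482 in place of 649 there. No paired analysis was possible because each group has 1 array and no replicate numbers; a fit with the fraction or the treatment as a block, which would take their interaction as error, was not run.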
